A study of Mus musculus with 6 samples.

Results

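The set described here holds 40 nuclear genes whose products copy and maintain mitochondrial DNA, transcribe it, or process, modify, polyadenylate, stabilise and degrade its RNA. They are given by a list of gene symbols, and all 40 were found among the 55232 features of the deposited count table. After removal of features with low counts, 39 of the 40 could be tested. RNA was sequenced from mouse pulmonary microvascular endothelial cells, which the labels call a cell line, after 12 h in the lower chamber of a co-culture. In the 3 control samples the neighbours were untreated TCMK-1 cells, an epithelial line from mouse kidney tubules. In the 3 samples of the repletion group the neighbouring TCMK-1 cells were first depleted of ATP and then allowed to regain it, which the labels abbreviate IR. The endothelial cells themselves received no treatment in either group, so the groups differed in the state of the neighbouring kidney cells. No genotype, transgene or drug given to the endothelial cells is named in the labels.

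Mitochondrial DNA is a small circle that encodes a few respiratory chain subunits together with the rRNAs and tRNAs needed to translate them. Everything else needed to express it is encoded in the nucleus, made in the cytosol and imported. A dedicated RNA polymerase transcribes both strands as long precursors, which are cut mainly at the tRNAs that punctuate them, and the released RNAs are modified, adenylated, bound by stabilising proteins and finally degraded. In endothelial cells, which draw much of their ATP from glycolysis, mitochondria are best known as sites of signalling, calcium handling and apoptosis control.

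The libraries held 15582349 to 17817618 counts and 17899 to 22130 features with at least 1 count, the most in repletion replicate 1. Whether the 3 samples of each group were grown as separate cultures is not in the labels, so the spread behind each p-value is that of these samples and may be only technical. The chi-square between replicates was 8.56 to 23.3 per feature, above sampling noise, so no library was a mere resequencing of another. It cannot tell separate cultures from separate preparations of the same RNA. Of 10 endothelial markers, 9 had counts in every library and Cldn5 was at 0 in 5 of 6, with summed levels of 2274 to 2524 CPM (counts scaled to a common library total) in control and 2432 to 2892 in the repletion group. The 10 tubular epithelial markers summed to 5.98 to 8.67 and 6.04 to 12.5 CPM, with Epcam, Krt18 and Slc34a1 at 0 in all 6 libraries. The 8 leukocyte markers, nearly all of it Cd68, summed to 378 to 417 and 223 to 311 CPM, with Itgam and Cd3e at 0 throughout and Ptprc at 0 in 5 of 6. The 4 lymphatic endothelial markers summed to 77.1 to 101 CPM in control and 116 to 133 in the repletion group. Flt4 made up most of that sum, at 62.7, 83.6 and 73.9 CPM in control and 108, 88.8 and 96.7 in the repletion group. Lyve1 was higher as well. Pdpn went the other way, from 1.66, 1.51 and 2.47 to 0.722, 0.257 and 1.03 CPM, and Prox1 was at most 0.834 CPM. The 6 lung epithelial markers summed to 0.224 to 0.628 and 0.845 to 1.797, with Sftpc, Sftpa1, Scgb1a1 and Nkx2-1 at 0 in all 6 libraries. Their rise was that of Ager, from 0.185, 0.503 and 0.056 to 1.32, 1.41 and 0.845 CPM. The 7 fibroblast markers summed to 20.4 to 23.0 and 17.6 to 25.2 CPM. The leukocyte, lymphatic and lung epithelial sums did not overlap between groups, and the part of these cell types in the results was not tested. Mitochondrially encoded mRNAs took 1.68%, 1.62% and 1.61% of counts in control and 2.51%, 2.21% and 2.78% in the repletion group. In bulk samples such as these, fewer cells of a type and less RNA per cell cannot be told apart.

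Expression of the 39 tested genes was divided between rises and falls. With edgeR's quasi-likelihood test and Benjamini-Hochberg adjustment over all 13804 tested features, at a threshold of 0.05, 6 were higher in the repletion group (15.4%), 10 were lower (25.6%) and 23 did not pass. Among all tested features, 20.5% were higher and 19.2% lower, so the share of calls in this set lay near the share in the transcriptome at large. The median log2 fold change of the 39 was -0.12, against 0.00 for all tested features, and it ranged from -0.98 for Top1mt to 1.50 for Tfb1m. The values of the 2 groups did not overlap for 9 genes on the higher side and 11 on the lower side, that is, all 3 repletion libraries lay beyond all 3 control libraries. That held for 25% and 25.4% of all tested features. Only Tfb1m (2.56% of the 39) passed the test with a change of at least 2-fold, against 10.3% of all features. Scaling by library size alone turned the split of 6 higher and 10 lower into 9 and 6, while that of all features went from 2830 higher and 2654 lower to 3214 and 2199. This scaling shifted the fold changes of all features by 0.06 on the log2 scale. The removal of the trend of counts with gene length and GC content, library by library, gave 7 and 7 in the set and 2732 and 2750 over all features. Without control replicate 2 the calls were 3 higher and 7 lower, and without control replicate 3 they were 5 higher and 5 lower.

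**Figure D1:**
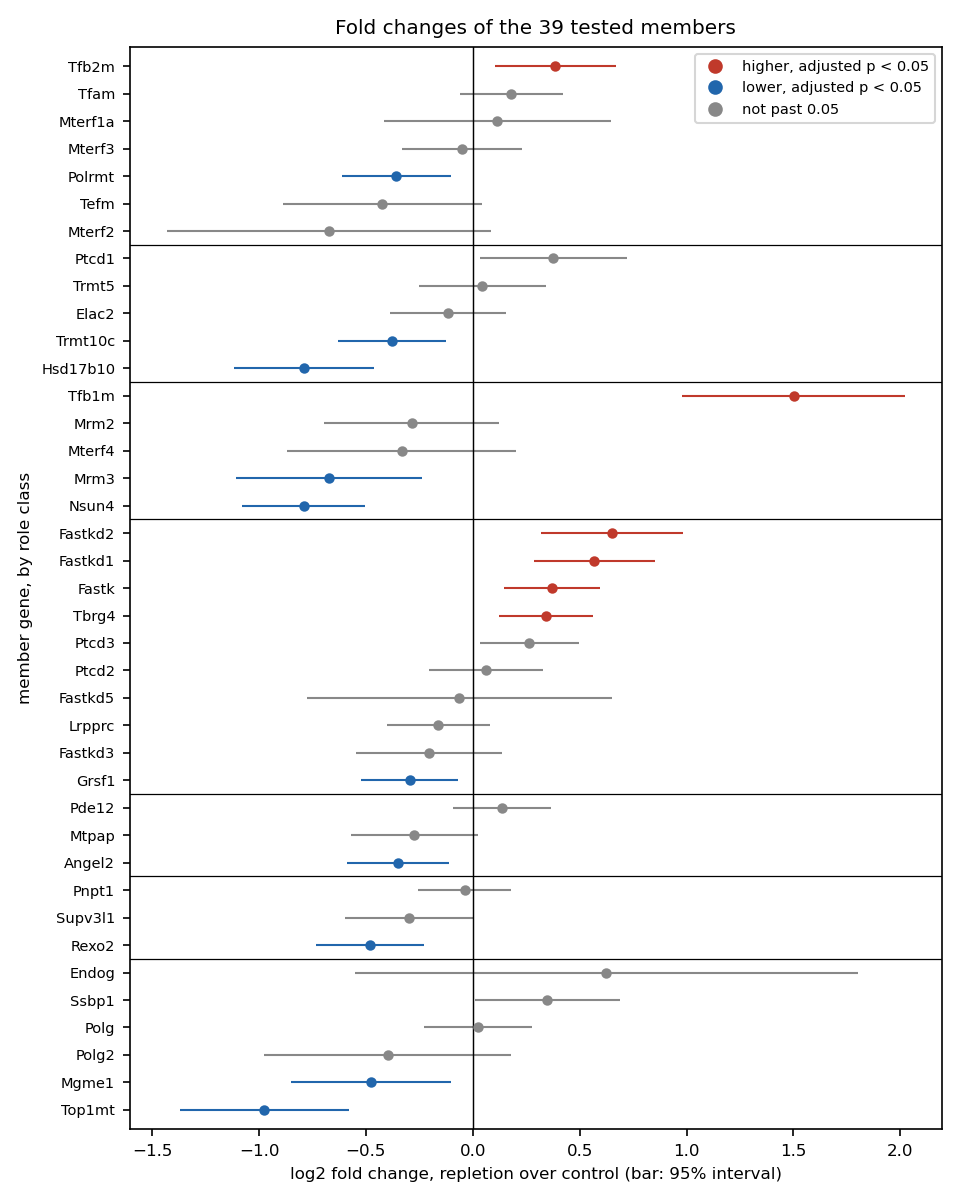
Fitted log2 fold change (repletion over control) with its 95% interval for each of the 39 tested genes, grouped by role, coloured by whether it passed the test at 0.05. Of the 6 rises, 4 are among the mRNA stability factors, and the largest single rise, 1.50, is that of Tfb1m.

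**Figure D2:**
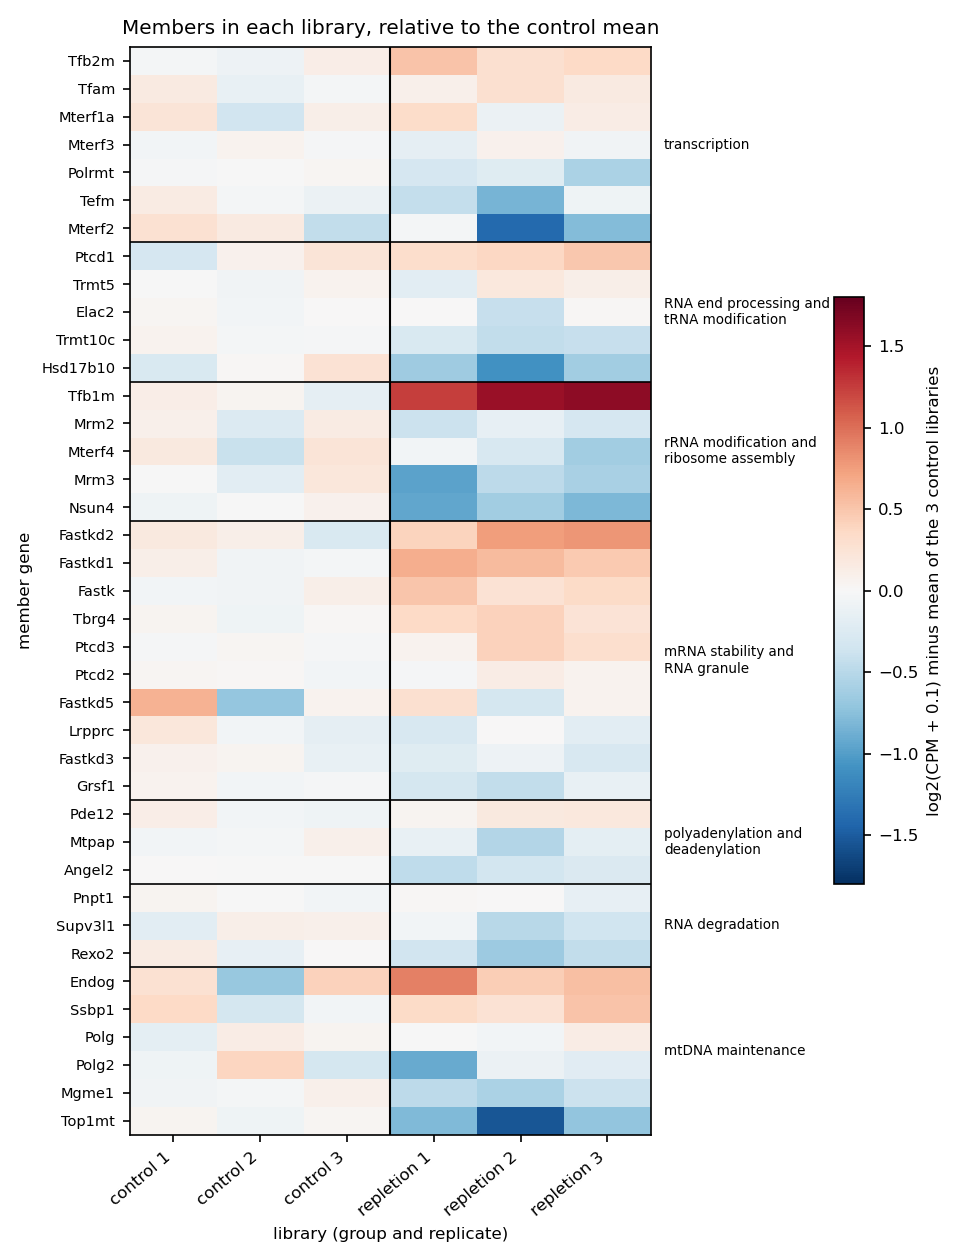
Level of each gene in each of the 6 libraries, as log2 of (CPM + 0.1) minus the gene's mean over the 3 control libraries. Top1mt, Nsun4 and Hsd17b10 are lower and Tfb1m is higher in all 3 repletion libraries than in all 3 control libraries.

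Control replicate 2 had the lowest control level for 19 of the 39 genes and the highest for 5, and control replicate 1 had the highest for 21. In the repletion group, replicate 3 was the lowest for 6 genes, replicate 1 for 15 and replicate 2 for 18. The median coefficient of variation over 3 libraries was 8.08% in control and 10.7% in the repletion group. It was smallest in control for Angel2, at 0.447%, and largest in the repletion group for Mterf2, at 48.7%.

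Of the 7 transcription genes, the promoter-melting factor Tfb2m was higher and the polymerase Polrmt was lower, and the other 5 did not pass (median log2 fold change -0.05). That is 14.3% in each direction, against 20.5% higher and 19.2% lower over all tested features. Polrmt (chromosome 10, 79736123 to 79746581 in GRCm38, minus strand) encodes the mitochondrial RNA polymerase. Its levels, in CPM scaled by the trimmed mean of M values (TMM), were 57.6, 57.7 and 59.4 in control and 47.3, 49.9 and 39.2 in the repletion group. All 3 repletion libraries lay below all control libraries, and repletion replicate 3 was the lowest. The mean went from 58.2 ± 1.00 to 45.4 ± 5.55 CPM (SD, n = 3), and the fitted level fell by 0.36 ± 0.12 (SE) on the log2 scale (adjusted p = 0.0263, edgeR). That call was lost without repletion replicate 3 (-0.27, adjusted p = 0.148), control replicate 2 (0.0541) or control replicate 3 (0.0786). It was also lost with library size scaling (0.0666) and with a block for replicate number (0.0502), in a range of 0.00624 to 0.148 over all alternatives.

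Tfb2m (chromosome 1, 179528055 to 179546267, minus strand) encodes the factor that opens the promoter DNA for the polymerase. Its levels were 24.4, 23.5 and 26.99 CPM in control and 35.5, 30.3 and 32.0 CPM in the repletion group, which do not overlap. The log2 fold change was 0.38 ± 0.13 (SE, adjusted p = 0.0303, edgeR). The rise missed the threshold without control replicate 1 (adjusted p = 0.0902), control replicate 2 (0.132), repletion replicate 1 (0.0961) or repletion replicate 3 (0.0727). It also missed it with no filter on low counts (0.0939) and with the replicate block (0.0592), in a range of 0.0101 to 0.132. A pseudogene, Gm1818, is 99.3% identical to part of Tfb2m, so reads could be divided between them, and its own log2 fold change was 0.06. Tfam, which bends promoter DNA and packages the mitochondrial genome, stood at 72.8, 59.6 and 63.7 CPM in control and 69.6, 79.4 and 73.2 CPM in the repletion group. The Tfam groups overlapped, and the log2 difference of 0.18 had a 95% interval of -0.06 to 0.42 (adjusted p = 0.226). So in the main test the melting factor and the polymerase were called in opposite directions, and no change was detected in the packaging factor. Neither Polrmt nor Tfb2m kept its call without control replicate 2 or with a block for replicate number.

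Tefm keeps the polymerase moving during elongation. Its levels were 11.3, 9.96 and 9.46 CPM in control and 7.59, 5.67 and 9.64 CPM in the repletion group. They overlapped through repletion replicate 3, and the log2 difference of -0.42 had an interval of -0.89 to 0.04 (adjusted p = 0.138). Mterf3, a member of the termination factor family that binds mitochondrial DNA and represses its transcription, stood at 27.5, 29.8 and 27.9 CPM in control and 25.3, 29.8 and 27.2 CPM in the repletion group. Its log2 difference was -0.05, with an interval of -0.33 to 0.23, and changed sign to 0.013 with library size scaling. The other MTERF genes of this class did not pass. Mterf2 had a log2 difference of -0.67 (adjusted p = 0.148) that passed only without repletion replicate 1 (-1.12, adjusted p = 0.0230, in a range of 0.0230 to 0.379). Exons of Tmem263 on the opposite strand, with 1337 to 1920 counts per library, cover 22.7% of Mterf2, which had 26 to 86 counts. Mterf1a had a log2 difference of 0.11 and a copy, Mterf1b, that is 98.6% identical.

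The promoters of these genes are shown because several nuclear factors that set the level of mitochondrial genes are known to bind near the start sites of Tfam, Tfb1m, Tfb2m and Polrmt. Each sequence is the RefSeq window (GRCm38.p6) from 250 bases before to 50 bases after the annotated start, 5′ to 3′ on the strand of the gene, here always the minus strand. Capitals mark matches, on either strand, to the NRF1 consensus, CCGGAAG (an ETS motif bound by GABP) or AAGATGGCG (a YY1 motif). Nsun4, the most significant fall in the rRNA class, has 2 RefSeq windows, of which the first is shown.
Tfam promoter, chr10:71237995-71238294, minus strand: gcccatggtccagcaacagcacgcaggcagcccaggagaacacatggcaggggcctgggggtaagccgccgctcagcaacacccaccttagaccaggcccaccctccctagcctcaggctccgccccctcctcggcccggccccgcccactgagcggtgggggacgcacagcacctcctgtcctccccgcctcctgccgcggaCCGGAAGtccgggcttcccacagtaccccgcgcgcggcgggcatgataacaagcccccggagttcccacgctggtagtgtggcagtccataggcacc
Tfb2m promoter, chr1:179546227-179546526, minus strand: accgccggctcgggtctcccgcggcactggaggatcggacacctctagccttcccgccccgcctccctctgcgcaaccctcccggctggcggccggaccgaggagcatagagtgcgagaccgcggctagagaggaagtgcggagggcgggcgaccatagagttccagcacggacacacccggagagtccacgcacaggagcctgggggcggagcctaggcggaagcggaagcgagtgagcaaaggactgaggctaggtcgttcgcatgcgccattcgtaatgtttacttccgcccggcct
Polrmt promoter, chr10:79746532-79746831, minus strand: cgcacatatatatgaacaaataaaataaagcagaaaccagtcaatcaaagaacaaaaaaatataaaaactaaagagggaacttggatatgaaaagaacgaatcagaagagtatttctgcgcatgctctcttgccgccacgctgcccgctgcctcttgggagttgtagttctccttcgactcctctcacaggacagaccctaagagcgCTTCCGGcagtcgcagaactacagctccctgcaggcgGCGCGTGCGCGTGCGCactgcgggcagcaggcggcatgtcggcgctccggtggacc
Tfb1m promoter, chr17:3557706-3558005, minus strand: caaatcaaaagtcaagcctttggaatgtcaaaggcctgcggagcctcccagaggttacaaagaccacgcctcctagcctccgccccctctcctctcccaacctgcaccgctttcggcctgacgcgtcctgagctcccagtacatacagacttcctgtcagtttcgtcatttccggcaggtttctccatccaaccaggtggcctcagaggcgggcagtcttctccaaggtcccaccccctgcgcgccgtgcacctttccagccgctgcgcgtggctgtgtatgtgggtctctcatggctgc
Nsun4 promoter, chr4:116053762-116054061, minus strand: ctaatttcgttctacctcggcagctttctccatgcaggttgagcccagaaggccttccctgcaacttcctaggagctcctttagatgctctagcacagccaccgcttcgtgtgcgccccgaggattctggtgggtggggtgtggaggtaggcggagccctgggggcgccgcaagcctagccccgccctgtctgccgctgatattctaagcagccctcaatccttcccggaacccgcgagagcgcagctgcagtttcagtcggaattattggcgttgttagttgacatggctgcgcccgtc
The Tfam window holds an ETS match at position -47 from the RefSeq start, which lies inside the gene as the count table gives it (chromosome 10, 71225464 to 71238280). The Polrmt window holds an ETS match at position -43 and 2 overlapping NRF1 matches at its start, which are printed as 1 run of capitals. No match to these letters lies in the other 3 windows shown. RefSeq windows were found for 37 of the 40 genes, all but Mterf3, Mtpap and Top1mt. The ETS letters were in the windows of 18 of the 37 (48.6%), against 20.9% of 9202 tested protein-coding genes and 8.9% of all 32851 windows. The NRF1 letters were in 4 (10.8%, against 11.9% and 4.6%) and the YY1 letters in 5 (13.5%, against 3.7% and 1.4%). The ETS letters stood in 2 of 6 genes called higher, 3 of 9 called lower and 12 of 21 not called. The NRF1 letters stood in 0, 2 and 2 of these, and a match is a description of the letters only.

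Of 5 genes for RNA end processing and tRNA modification, 2 were lower (40%) and 3 did not pass (median log2 fold change -0.12). Over all tested features, 19.2% were lower. Ptcd1, described below, had a log2 difference of 0.38 without a call. Both falls were in transcripts for proteins of mitochondrial RNase P. RNase P cuts the 5′ ends of tRNAs out of the precursor and consists of the methyltransferase TRMT10C, the dehydrogenase HSD17B10 and the nuclease PRORP. Hsd17b10 (chromosome X, 152001845 to 152004442, plus strand) stood at 45.0, 55.3 and 65.4 CPM in control and 35.02, 25.6 and 35.4 CPM in the repletion group. Both groups were spread, yet every repletion library was below every control library. It went from 55.3 ± 10.2 to 32.0 ± 5.57 CPM (SD, n = 3), fell by 0.79 ± 0.16 on the log2 scale (adjusted p = 7.63e-04, edgeR) and passed in all 18 alternatives. Trmt10c (chromosome 16, 56032609 to 56037819, minus strand) stood at 50.5, 46.8 and 47.3 CPM in control and 39.7, 35.4 and 36.0 CPM in the repletion group. It fell by 0.38 ± 0.12 (adjusted p = 0.0178, edgeR), a call lost without repletion replicate 3 (0.0678). The call was also lost with the length and GC trend removed (-0.28, 0.0612, and 0.0988 with the replicate block added), in a range of 0.0118 to 0.0988. The groups did not overlap for either gene.

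The third protein, the nuclease itself, was not among the 40 but belongs to a list of 59 other pathway genes. Prorp is listed in the table under its older symbol 1110008L16Rik and was matched through a RefSeq synonym. Its levels were 6.87, 7.23 and 8.65 CPM in control and 12.0, 16.9 and 13.6 CPM in the repletion group, a log2 fold change of 0.90 ± 0.20 (adjusted p = 0.00187, edgeR). It therefore rose while its partners fell. Opposite-strand exons cover 5.46% of its exonic bases. Set per kilobase of gene length, the ratio of Prorp to Hsd17b10 was 0.0445, 0.0381 and 0.0385 in control and 0.0996, 0.192 and 0.112 in the repletion group, and that of Prorp to Trmt10c was 0.0917, 0.104 and 0.123 against 0.203, 0.321 and 0.254. The ratio of Trmt10c to Hsd17b10 was 0.486, 0.366 and 0.313 against 0.491, 0.600 and 0.440. In both groups and all 6 libraries the nuclease transcript was thus the least abundant of the RNase P transcripts.

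**Figure D3:**
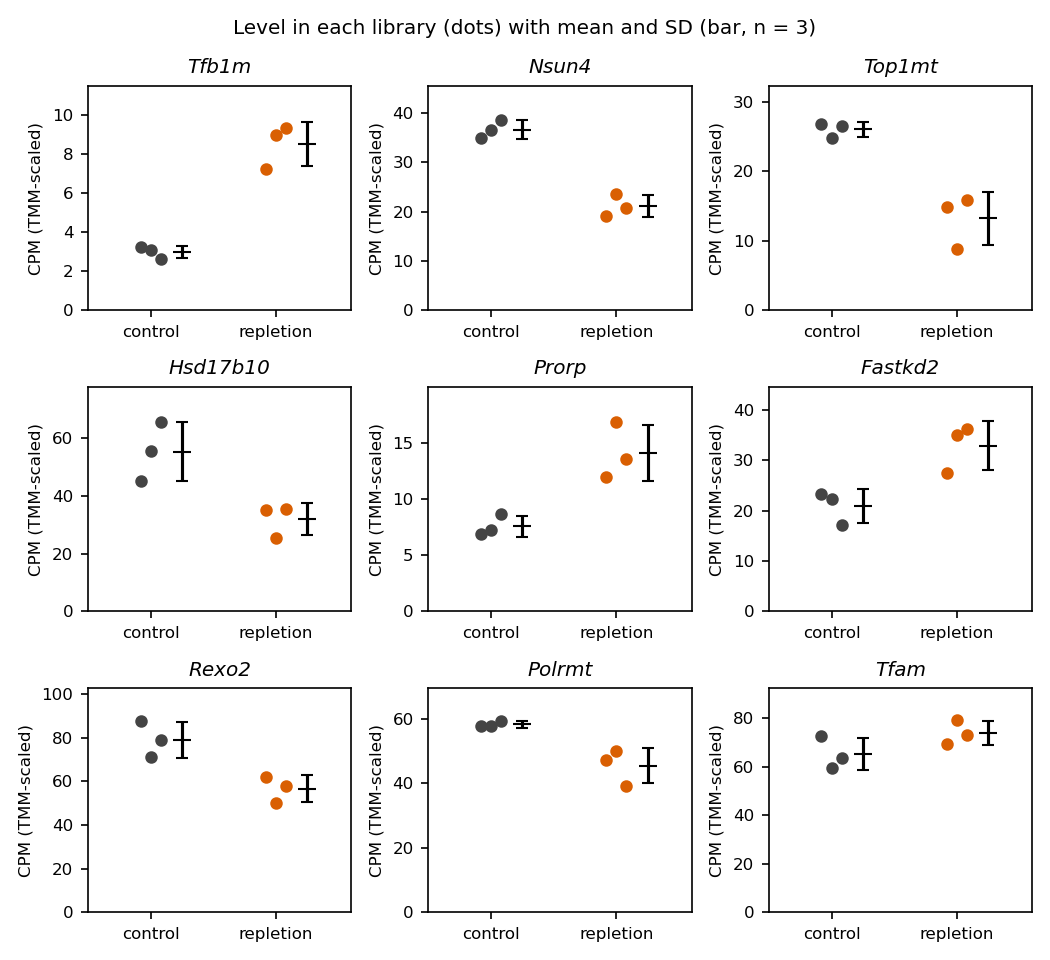
TMM-scaled CPM of 8 of the 40 genes and Prorp in each library (points) with the mean and SD of each group, control beside repletion. Hsd17b10, Nsun4, Rexo2 and Top1mt sit lower and Tfb1m and Fastkd2 sit higher in all 3 repletion libraries.

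Elac2, the nuclease that trims tRNA 3′ ends, stood at 58.1, 54.8 and 56.7 CPM in control and 56.6, 42.6 and 57.2 CPM in the repletion group. Repletion replicate 2 alone was low, and the log2 difference of -0.12 (interval -0.39 to 0.15) was 0.0044 without it. Trmt5, which methylates tRNAs next to the anticodon, had a log2 difference of 0.04 (adjusted p = 0.828). Ptcd1, a pentatricopeptide protein linked to leucine tRNAs, had 0.38 (adjusted p = 0.0737) with groups that did not overlap. It passed with library size scaling (adjusted p = 0.0416) and with the length and GC trend removed (0.48, 0.0202), in a range of 0.0202 to 0.319.

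Among 5 genes for rRNA modification and ribosome assembly, Tfb1m rose, Nsun4 and Mrm3 fell, and Mterf4 and Mrm2 did not pass (median log2 fold change -0.33). These shares, 20% higher and 40% lower, stand beside 20.5% and 19.2% of all tested features. Tfb1m (chromosome 17, 3519256 to 3557781, minus strand) encodes the enzyme that dimethylates a pair of adenines in the small-subunit rRNA. It had 51, 49 and 46 counts in control and 124, 142 and 156 in the repletion group. In CPM these were 3.24, 3.11 and 2.65 against 7.24, 8.94 and 9.34. Every repletion library was more than double every control library. The level went from 3.00 ± 0.310 to 8.51 ± 1.12 CPM (SD, n = 3), a 2.83-fold rise or 1.50 ± 0.25 (SE) on the log2 scale (adjusted p = 1.66e-04, edgeR), and it passed in all 18 alternatives. Exons of Tiam2 on the opposite strand cover 3.93% of its exonic bases, and Tiam2 was itself higher (log2 fold change 0.76, adjusted p = 0.0132). The part of shared reads was not tested.

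Nsun4 (chromosome 4, 116032842 to 116053876, minus strand) encodes a cytosine methyltransferase that MTERF4 brings to the ribosome. Its levels were 34.9, 36.5 and 38.6 CPM in control and 19.1, 23.6 and 20.8 CPM in the repletion group, which lay far apart relative to their spread. The mean went from 36.6 ± 1.86 to 21.2 ± 2.26 CPM (SD, n = 3), 0.578 of the control level as fitted. It fell by 0.79 ± 0.14 on the log2 scale (adjusted p = 2.38e-04, edgeR) and passed in all 18 alternatives. No other annotated gene covers any of its exonic bases. Mterf4, its partner, stood at 7.82, 5.20 and 8.13 CPM in control and 6.71, 5.67 and 4.43 CPM in the repletion group, which overlapped (log2 difference -0.33, adjusted p = 0.317). Exons of Sned1, which was higher by 0.90, cover 35.2% of Mterf4. The ratio of Nsun4 to Mterf4 per kilobase was 3.92, 6.17 and 4.17 in control and 2.51, 3.66 and 4.12 in the repletion group. The 2 rRNA base-modifying enzymes with calls, Tfb1m and Nsun4, thus moved in opposite directions.

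Mrm3, a ribose methyltransferase of the large-subunit rRNA, stood at 11.7, 10.3 and 13.6 CPM in control and 6.01, 8.50 and 7.84 CPM in the repletion group. It fell by 0.67 ± 0.21 (adjusted p = 0.0157, edgeR), a call lost without control replicate 3 (0.0796) or repletion replicate 1 (0.0535). The call was also lost with the length and GC trend removed (-0.47, 0.0793, and 0.106 with the replicate block added), in a range of 0.00756 to 0.106. Mrm2, a ribose methyltransferase of the same rRNA, had a log2 difference of -0.29 (adjusted p = 0.258).

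Of the 10 tested genes for mRNA stability and RNA granules, 4 were higher and 1 was lower (median log2 fold change 0.16). These are 40% and 10%, against 20.5% and 19.2% of all tested features. The 4 that rose, Fastk, Fastkd1, Fastkd2 and Tbrg4, all belong to the FASTK family of 6 (66.7% higher). Proteins of this family share a RAP domain and each act on particular mitochondrial RNAs. No test was made over the family, and the calls of Fastk and Tbrg4 were lost in some alternatives. Fastkd2 (chromosome 1, 63730614 to 63754655, plus strand), needed for the large-subunit rRNA and ribosome assembly, stood at 23.4, 22.3 and 17.2 CPM in control and 27.4, 35.1 and 36.2 CPM in the repletion group. It went from 20.96 ± 3.32 to 32.9 ± 4.79 CPM (SD, n = 3), a log2 fold change of 0.65 ± 0.16 (adjusted p = 0.00340, edgeR). Fastkd1 (chromosome 2, 69686815 to 69713516, minus strand), known to limit the level of a complex I mRNA, stood at 23.6, 21.003 and 21.3 CPM in control and 34.7, 32.7 and 30.5 CPM in the repletion group. Its log2 fold change was 0.57 ± 0.13 (adjusted p = 0.00291, edgeR). For both genes the groups did not overlap, the call held in all 18 alternatives, and no other annotated gene covers their exons.

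Fastk, the founding member of the family, stood at 90.7, 89.8 and 100.1 CPM in control and 131, 112 and 119 CPM in the repletion group. It rose by 0.37 ± 0.11 (adjusted p = 0.0102, edgeR), a call lost only without control replicate 2 (0.0629, in a range of 0.00302 to 0.0629). Exons of Slc4a2 on the opposite strand, whose own log2 difference was 0.24 (adjusted p = 0.130), cover 26.1% of Fastk. Tbrg4, which stabilises some mitochondrial mRNAs, stood at 85.4, 77.7 and 83.6 CPM in control and 106, 109 and 97.8 CPM in the repletion group. Its rise of 0.34 ± 0.10 (adjusted p = 0.0145, edgeR) was lost without control replicate 2 (0.0896) or control replicate 3 (0.0529) and with no filter (0.0512), in a range of 0.00348 to 0.0896. The other members of the family did not pass. Fastkd5, which processes mRNA ends that no tRNA flanks, stood at 5.98, 2.35 and 4.04 CPM in control and 4.73, 3.08 and 4.01 CPM in the repletion group, with 65.2% of its exonic bases shared with Ubox5 on the same strand. Its log2 difference of -0.06 (interval -0.77 to 0.65) turned positive with library size scaling (0.0041), limma-voom (0.020) and the trend removed (0.050), and without control replicate 1 (0.28) or repletion replicate 2 (0.08). Fastkd3 had -0.21 (adjusted p = 0.331).

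Grsf1, an RNA-binding protein that marks mitochondrial RNA granules, stood at 123, 113 and 116 CPM in control and 94.1, 86.5 and 106 CPM in the repletion group. It fell by 0.29 ± 0.11 (adjusted p = 0.0381, edgeR), and the groups did not overlap. That call was among the least stable. It was lost without control replicate 1 (0.0870), 2 (0.0506) or 3 (0.0826) and without repletion replicate 1 (0.0599) or 2 (0.110). Library size scaling (0.0928), the replicate block (0.0676), the trend removed (0.0928) and trend and block together (0.132) also lost it, in a range of 0.0272 to 0.132. Ptcd3, a small ribosomal subunit protein, had a log2 difference of 0.26 (adjusted p = 0.0633) that passed with library size scaling (0.0245) and without repletion replicate 1 (0.35, 0.0142), in a range of 0.0142 to 0.234. Ptcd2 had 0.06 (adjusted p = 0.734).

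Lrpprc and Slirp encode the protein pair that coats mitochondrial mRNAs, keeps them stable and promotes their adenylation. Lrpprc had the highest CPM of the set, at 351, 295 and 274 in control and 249, 307 and 267 in the repletion group. The groups overlapped, and the log2 difference was -0.16 with an interval of -0.40 to 0.08 (adjusted p = 0.284). It passed only with the length and GC trend removed (-0.32, adjusted p = 0.0303, in a range of 0.0303 to 0.676). Slirp had counts of 0, 1 and 0 in control and 1, 0 and 0 in the repletion group, and was the only gene of the 40 removed as too low. Exons of Alkbh1 and Snw1 on the opposite strand cover 97.8% of its exonic bases, and these neighbours had 521 to 721 and 1014 to 1236 counts per library. Whether Slirp reads were left out as ambiguous was not tested, and no level of Slirp or ratio to Lrpprc is given.

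Of the 3 genes listed under polyadenylation and deadenylation, Angel2 was lower and Mtpap and Pde12 did not pass (median log2 fold change -0.27). The share lower was 33.3% of 3 genes, against 19.2% of all tested features. The listing of Angel2 is not evidence that it acts on poly(A) tails. Mtpap, the poly(A) polymerase, stood at 31.0, 31.3 and 34.2 CPM in control and 29.2, 22.2 and 28.3 CPM in the repletion group. Its groups did not overlap, yet the log2 difference of -0.27 (interval -0.57 to 0.02) missed the threshold at an adjusted p of 0.132. Other annotated genes cover 22.1% of its 6198 exonic bases in the annotation used for overlaps. The gene as counted was 2651 bases long, so the share of its counted bases is not known. Angel2, a relative of the cytosolic deadenylases, stood at 58.1, 57.7 and 57.7 CPM in control and 42.1, 45.9 and 48.1 CPM in the repletion group. It fell by 0.35 ± 0.11 (adjusted p = 0.0212, edgeR), a call lost without control replicate 3 (0.0589) or repletion replicate 1 (0.0591). The call was also lost with library size scaling (0.0509) and with the replicate block (0.0502), in a range of 0.00627 to 0.0591. Pde12, which removes mitochondrial poly(A) tails, had a log2 difference of 0.14 (adjusted p = 0.344).

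Of 3 RNA degradation genes, only Rexo2 passed (median log2 fold change -0.30). This fall is 33.3% of the class, against 19.2% of all tested features. Rexo2 (chromosome 9, 48468512 to 48480623, minus strand) encodes the oligoribonuclease that clears the short fragments left by the main exonuclease. It stood at 87.5, 71.1 and 79.0 CPM in control and 62.0, 50.2 and 58.0 CPM in the repletion group, which did not overlap. The mean went from 79.2 ± 8.24 to 56.8 ± 6.005 CPM (SD, n = 3). It fell by 0.48 ± 0.12 on the log2 scale (adjusted p = 0.00448, edgeR) and passed in all 18 alternatives. The helicase SUPV3L1 and the exonuclease PNPT1 form the degradosome. Supv3l1 stood at 35.6, 43.7 and 43.2 CPM in control and 39.2, 28.6 and 31.7 CPM in the repletion group, a log2 difference of -0.30 (interval -0.60 to 0.00, adjusted p = 0.106) that passed without repletion replicate 1 (-0.44, 0.0204, in a range of 0.0204 to 0.319). Pnpt1 stood at 107, 103 and 100.4 CPM in control and 105, 104 and 93.4 CPM in the repletion group. Its log2 difference was -0.04 (interval -0.25 to 0.18) and turned to 0.025 with library size scaling and 0.011 with the trend removed. The ratio of Supv3l1 to Pnpt1 per kilobase was 0.394, 0.501 and 0.509 in control and 0.440, 0.326 and 0.402 in the repletion group, which overlap.

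Among the 6 genes for mitochondrial DNA maintenance, Top1mt and Mgme1 were lower and 4 did not pass (median log2 fold change -0.19). At 33.3%, the share lower stood beside 19.2% over all tested features. Top1mt (chromosome 15, 75657035 to 75678800, minus strand) encodes the mitochondrial topoisomerase, which relieves the supercoils made by replication and transcription. It stood at 26.8, 24.7 and 26.5 CPM in control and 14.9, 8.88 and 15.9 CPM in the repletion group. The control libraries were close together and every repletion library was far below them, with repletion replicate 2 the lowest. It went from 26.0 ± 1.11 to 13.2 ± 3.78 CPM (SD, n = 3), 0.508 of the control level as fitted, and fell by 0.98 ± 0.19 on the log2 scale (adjusted p = 6.16e-04, edgeR). The call held in all 18 alternatives. Mgme1, a nuclease that trims flaps on replicating DNA, stood at 13.0, 13.2 and 14.4 CPM in control and 9.75, 9.06 and 10.4 CPM in the repletion group. It fell by 0.48 ± 0.18 (adjusted p = 0.0402, edgeR), a call lost without control replicate 2 (0.0700) or 3 (0.122) and without repletion replicate 1 (0.0621), 2 (0.0781) or 3 (0.0633). Library size scaling (0.0722), no filter (0.0531), the replicate block (0.0694), the trend removed (0.0646) and trend and block together (0.108) also lost it, in a range of 0.0347 to 0.122. Exons of Snx5 on the opposite strand cover 6.15% of the exonic bases of Mgme1. Snx5 had 5230 to 7903 counts per library and was itself lower (log2 fold change -0.42, adjusted p = 0.00357, edgeR). The part of shared reads was not tested.

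The other 4 genes of this class, the DNA polymerase subunits among them, did not pass, while the helicase Twnk, described with the other pathway genes, did. Polg, the catalytic subunit of the DNA polymerase, stood at 50.1, 62.2 and 58.4 CPM in control and 56.6, 54.8 and 62.3 CPM in the repletion group. Its log2 difference was 0.03 (interval -0.23 to 0.28) and turned to -0.16 with the trend removed and -0.012 with no filter. Polg2, the accessory subunit, stood at 6.36, 8.76 and 5.36 CPM in control and 3.502, 6.23 and 5.81 CPM in the repletion group (log2 difference -0.40, adjusted p = 0.266). Both genes overlapped between groups, and the ratio of Polg2 to Polg per kilobase was 0.313, 0.347 and 0.226 against 0.153, 0.280 and 0.230. Ssbp1, which coats single-stranded mitochondrial DNA, stood at 33.3, 20.7 and 25.1 CPM in control and 32.9, 31.0 and 36.8 CPM in the repletion group. Its log2 difference of 0.35 (adjusted p = 0.0959) passed without control replicate 1 (0.53, 0.0171) and with library size scaling (0.0495), in a range of 0.0171 to 0.430. Endog, a nuclease of the intermembrane space, had 13, 6 and 16 counts in control and 23, 15 and 17 in the repletion group (log2 difference 0.62 ± 0.56, adjusted p = 0.398). Exons of Spout1 on the opposite strand cover 35.7% of the exonic bases of Endog. Spout1 had 253 to 581 counts per library and was itself lower (log2 fold change -0.62, adjusted p = 0.00600, edgeR).

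Compared per kilobase of the gene length in the deposited table, on unscaled CPM, levels in control spanned 63.9-fold, from 41.6 for Hsd17b10 to 0.651 for Endog. Next to the top were Grsf1 at 37.8, Lrpprc at 35.2, Pnpt1 at 28.8, Rexo2 at 22.9, Tbrg4 at 21.7 and Fastk at 20.9. The first 3 did not differ beyond their SDs, and Rexo2, Tbrg4 and Fastk did not differ beyond theirs from the next gene of that trio. Pnpt1 stood apart from the genes on each side of it. At the bottom were Mterf4 at 1.31, Tfb1m at 0.813 and Endog, of which Mterf4 and Tfb1m differed beyond their SDs. Over all 39 genes, 8 of 38 neighbouring pairs differed in that way. Across genes, the order in the repletion group was close to that in control (Spearman's rho 0.955 over 39 genes, a description of values that share their libraries).

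**Figure D4:**
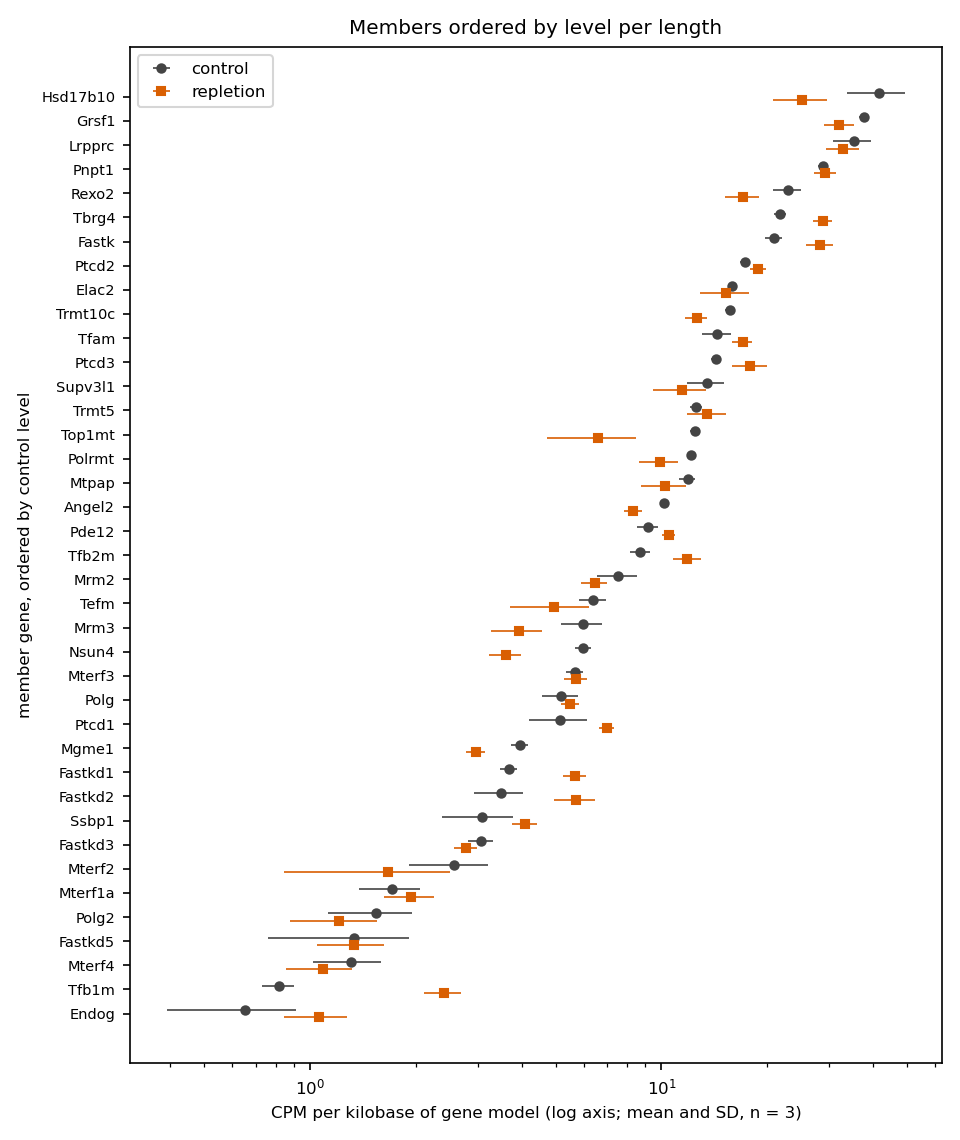
Level per kilobase (CPM per kilobase, log axis) of the 39 tested genes in control order, with the mean and SD of 3 control and 3 repletion libraries. Hsd17b10, at 41.6 in control, is at the top and stands at 25.1 in the repletion group, and Tfb1m moves up from 0.813 to 2.40.

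Overlap with other genes limited some of these values, since the strand setting of the counting is not given in the sources used here. For 21 of the 40 genes some exonic base is covered by another annotated gene, for 7 over 10% (Mtpap among them, by a longer gene model than the one counted), and 2 have a near-identical copy. Among the 17 genes with neither, 2 were higher (Fastkd1 and Fastkd2, 11.8%) and 7 were lower (Polrmt, Trmt10c, Hsd17b10, Nsun4, Grsf1, Angel2 and Rexo2, 41.2%). Of all tested features, to which this filter was not applied, 20.5% were higher and 19.2% lower, so the shares are not like for like. The filter also set aside genes with little coverage, such as Tfb1m (3.93%) and Mrm3 (0.568%).

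Gene length moved with the fold change. Across 11682 tested protein-coding genes, Spearman's rho of length with log2 fold change was 0.25, and across the 39 genes it was 0.28, both descriptions over genes that share the same 6 libraries. The median length was 3479 bases in the set and 4482 bases over the protein-coding genes. When the trend of counts with length and GC content was removed, rho was 0.00 across the protein-coding genes and 0.08 across the 39 genes, and the median log2 fold change of the 39 went from -0.12 to -0.06. All 6 rises kept their calls with the trend removed, as did 6 of the 10 falls (Polrmt, Hsd17b10, Nsun4, Angel2, Rexo2 and Top1mt). Trmt10c, Mrm3, Grsf1 and Mgme1 lost theirs, while Ptcd1 passed as higher and Lrpprc as lower.

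**Figure D5:**
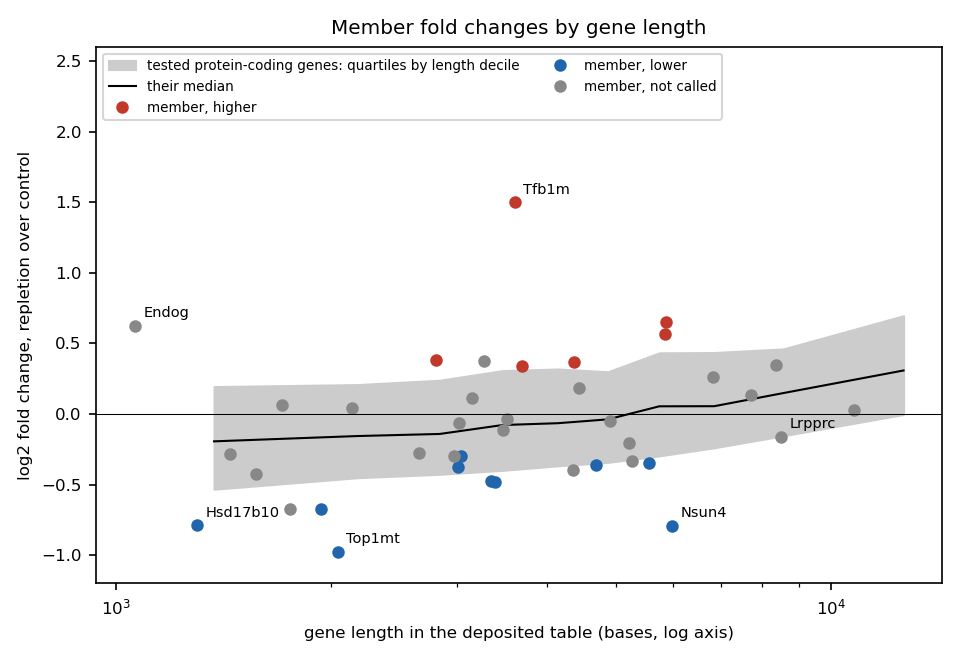
Log2 fold change against gene length (log axis) for the 39 genes, coloured by call, with the median and quartiles of tested protein-coding genes in 10 bins of length. The bin medians rise from -0.19 in the shortest genes to 0.31 in the longest. Tfb1m, Top1mt, Nsun4, Hsd17b10 and Endog are among the genes outside the quartiles of their bins.

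A list of 59 other nuclear genes of the same pathways gave 7 higher (11.9%), 16 lower (27.1%) and 36 that did not pass, with a median log2 fold change of -0.17. Over all tested features the shares were 20.5% and 19.2% and the median 0.00. Its 15 rRNA and granule factors held no rise and 5 falls (Lactb2, Ngrn, Rcc1l, Trub2 and Eral1, median -0.39), and its 8 genes of nucleotide supply held 1 rise and 4 falls (median -0.35). The 9 further DNA replication and repair genes were split, with 3 higher and 4 lower, and the 16 tRNA genes had 2 of each. The 3 matrix proteases gave no call in edgeR's test.

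Top3a, which separates linked daughter genomes in mitochondria and also acts in the nucleus, stood at 7.32, 10.1 and 9.17 CPM in control and 26.8, 23.8 and 26.4 CPM in the repletion group. That was a 2.90-fold rise (log2 1.53 ± 0.17, adjusted p = 3.33e-06, edgeR), opposite to the fall of Top1mt. Exog, a repair nuclease, fell by 0.96 ± 0.16 from 24.8, 26.5 and 24.9 to 12.6, 11.02 and 15.57 CPM (adjusted p = 1.99e-04). Twnk, the replicative helicase, stood at 21.6, 15.8 and 17.99 CPM in control and 24.0, 24.2 and 25.6 CPM in the repletion group, a rise of 0.41 ± 0.15 (adjusted p = 0.0379). Its call was lost without control replicate 2 (0.30, 0.197) or 3 (0.117) and without repletion replicate 2 (0.0538) or 3 (0.121). No filter (0.0929) and the replicate block (0.0584) also lost it, in a range of 0.0127 to 0.197.

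Trit1, which adds an isopentenyl group to some cytosolic and mitochondrial tRNAs, stood at 26.8, 23.8 and 27.3 CPM in control and 11.1, 8.18 and 8.32 CPM in the repletion group. It fell by 1.50 ± 0.17 (adjusted p = 4.56e-06, edgeR). Lactb2, a mitochondrial endoribonuclease, went from 81.4, 81.2 and 84.9 to 38.2, 40.7 and 34.5 CPM and fell by 1.12 ± 0.11 (adjusted p = 1.53e-06, edgeR). Both falls were larger than that of any of the 39 genes, of which the largest was 0.98. Tk2, the mitochondrial thymidine kinase, fell by 0.81 ± 0.18 (adjusted p = 0.00217, edgeR). Tymp, which degrades thymidine, rose by 1.66 ± 0.49 from 0.509, 0.825 and 0.923 to 3.15, 2.20 and 1.86 CPM (adjusted p = 0.0120), which was lost without repletion replicate 1 (1.41, 0.0700, in a range of 0.00461 to 0.0700), and 42.0% of its exonic bases are shared with other genes.

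Among 8 nuclear regulators, 1 rose and 1 fell (12.5% each, against 20.5% and 19.2% of all tested features). Gabpa, the DNA-binding subunit of the ETS factor GABP, stood at 52.2, 53.1 and 43.5 CPM in control and 66.6, 75.0 and 73.7 CPM in the repletion group and rose by 0.53 ± 0.12 (adjusted p = 0.00190, edgeR). Ppargc1a, the coactivator PGC-1alpha that drives mitochondrial biogenesis, stood at 30.0, 28.0 and 30.9 CPM in control and 22.8, 23.2 and 20.0 CPM in the repletion group. It fell by 0.43 ± 0.14 (adjusted p = 0.0184, edgeR), a call lost without control replicate 3 (0.0683) or repletion replicate 3 (0.0857), in a range of 0.00564 to 0.0857. Nrf1, the respiratory factor whose letters were searched for above, had a log2 difference of 0.05 with an interval of -0.20 to 0.31 (adjusted p = 0.764).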

How the data were processed

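Read counts per feature for 6 RNA-seq libraries were used as the authors deposited them, as raw whole numbers for 55232 features, with replicates kept separate. Per the submitters' processing notes, HISAT2 2.0.5, featureCounts 1.5.0-p3, DESeq2 1.20.0 and build GRCm38.p6 were used, with no roles named. Which annotation release and which strand setting were used is not given in these sources. Samples were grouped by title. Features without an Ensembl identifier held 0.133% to 0.208% of counts.

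The counts were filtered with filterByExpr by group in edgeR 4.0.16 (R 4.3.3), which left 13804 features and removed 41428. TMM factors, 0.970 to 1.03, scaled the libraries, and features were tested with the quasi-likelihood test (glmQLFit, glmQLFTest), two-sided, with Benjamini-Hochberg adjustment over all tested features and a threshold of 0.05. The common coefficient of variation between samples of a group, by edgeR's estimate, was 14.1%. The SE is the log2 fold change over the square root of F. CPM per library are TMM-scaled, and marker sums and levels per kilobase use unscaled totals and the deposited gene length. Exon overlaps, GC content and copies (BLAST 2.17.0, at least 95% identity over 30% of the longest transcript) came from GENCODE M21, which held 99.8% of the identifiers, 98.3% with the same start and end.

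The alternatives were DESeq2 1.42.0, limma-voom (limma 3.58.1), RLE, upper quartile or library size scaling, no filter, at least 1 CPM in 3 samples, only protein-coding genes, a replicate block, the length and GC trend removed with and without that block, removal of mitochondrial features, and each replicate left out. The genes and lists were chosen with earlier results of these data known. Values per library are given for a set of core genes and, in each role class and pathway list, for the gene with the smallest p past the threshold in each direction. Ptcd1, Ptcd3, Mterf2, Mterf4, Mrm3, Fastk, Tbrg4, Mgme1 and Endog have values per library or alternatives printed beyond that rule, chosen after they were seen.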

Additional observations from a re-analysis of the deposited data

How the results depend on the processing

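Of 16 calls among the 39 tested genes, 7 held in all 18 alternatives (Hsd17b10, Tfb1m, Nsun4, Fastkd1, Fastkd2, Rexo2 and Top1mt), 9 were lost in at least 1 and 0 reversed; 6 of the 23 other genes passed in at least 1. The 10 falls became 6 with library size scaling, 6 with a replicate block and 6 with the length and GC trend removed with that block. Leaving out 1 replicate gave 3 to 6 rises and 5 to 9 falls among the genes (fewest rises without control replicate 2, fewest falls without control replicate 3), 4 to 6 rises and 12 to 17 falls among the other pathway genes, and 2195 to 2765 rises and 1977 to 2745 falls over all features. Whether samples of the same replicate number were paired is not in the labels. Same-numbered libraries correlated at -0.08, -0.03 and 0.06 after removal of group means, and 2 of 6 libraries correlated best with their own number. With 3 libraries per group these correlations cannot decide whether the samples were paired. With the block, 5 rises and 6 falls passed. Small log2 differences changed sign without a call: Mterf3 to 0.013 with library size scaling, and Fastkd5 to 0.020 with limma-voom, 0.0041 with library size scaling, 0.050 with the trend removed and 0.095 with trend and block. Pnpt1 went to 0.025, 0.011 and 0.0074 with library size scaling, trend removed, and trend and block. Polg went to -0.012 with no filter and -0.16 with the trend removed with or without the block, and Nrf1 to -0.16 under both. Leaving out 1 replicate gave log2 differences of -0.062 to 0.22 for Mterf1a, -0.12 to 0.0034 for Mterf3, -0.19 to 0.0044 for Elac2, -0.043 to 0.14 for Trmt5, -0.36 to 0.28 for Fastkd5, -0.074 to 0.010 for Pnpt1 and -0.077 to 0.074 for Polg. The cause was not tested. Endog had 6 to 23 counts per library and an SE of 0.56 on the log2 scale, so small differences in it were not detectable at this depth.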
